A study of Mus musculus with 8 samples.

Results

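Complex I (NADH:ubiquinone oxidoreductase) genes were followed from mouse embryonic stem cells into differentiated cells. The genes were all protein-coding genes of GENCODE M21 whose symbol starts with Nduf or mt-Nd. They numbered 53 of the 32780 genes with transcripts in the tables. Of these, 36 encode nuclear subunits, 8 are assembly factors named Ndufaf, and 7 are subunits encoded by mitochondrial DNA. The other 2, Ndufa4 and Ndufa4l2, carry the Nduf name without being counted as complex I subunits here. All 53 passed the filter on low counts.

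The day 10 group held 4 libraries of TC1 cells, a mouse embryonic stem cell line, taken after 10 days of differentiation. The day 0 group held 4 libraries of undifferentiated TC1 cells. Both groups were wild-type with no further agent named, and no label gives the culture medium, the target lineage or separate cultures behind the 4 libraries of a day. The p-values therefore measure the spread between these libraries, which may be technical.

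Complex I is the entry point of the respiratory chain. It takes electrons from NADH through FMN and a chain of iron-sulfur clusters to ubiquinone and pumps protons across the inner mitochondrial membrane. Its N module oxidises NADH, its Q module reduces ubiquinone, and its membrane arm, the P module, moves the protons. The catalytic core is shared with bacteria and is encoded partly in the nucleus and partly in mitochondrial DNA. Accessory subunits surround the core, and assembly factors help to build the enzyme without staying in it.

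Between 13525255 and 17843651 estimated counts per library were deposited for day 10, and between 11242568 and 15808039 for day 0. The pluripotency markers summed to 165 to 220 CPM (counts relative to library size, scaled by TMM) at day 10, against 3598 to 4027 CPM at day 0, and 9 of 9 fell. At day 10 the summed markers of several other cell types were above day 0. Fibroblast and matrix markers summed to 5876 to 10460 CPM, against 119.1 to 134.9 CPM at day 0, with 6 of 6 higher. Cardiomyocyte markers summed to 356 to 562 CPM, against 51.4 to 63.2 CPM at day 0, with 8 of 8 tested higher and Nppa at 0 in all day 0 libraries. Visceral endoderm markers summed to 986 to 3063 CPM, against 25.5 to 36.6 CPM at day 0, with 5 of 6 higher. Smooth muscle (433 to 749 against 13.8 to 22.8 CPM, 4 of 5 higher), endothelial (368 to 470 against 32.2 to 36.2 CPM, 5 of 5, Cd93 at 0 at day 0), blood (90.3 to 147 against 0.786 to 1.04 CPM, 4 of 4 tested, Hbb-bt and Plek at 0 at day 0) and neural markers (135 to 268 against 97.8 to 113 CPM, 2 of 5) are given in the same order of days. The part of this mixture in the changes below was not tested. In bulk RNA, fewer cells of a type and less RNA per cell cannot be told apart. Day 10 replicate 2 stood apart within its day: it had the highest visceral endoderm and neural sums, the lowest fibroblast sum, and the lowest share of counts in mitochondrially encoded genes (1.55%, against 1.97 to 2.15% in the other day 10 libraries).

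Nuclear complex I RNA was lower at day 10, while no mitochondrially encoded subunit was called lower. Of the 36 nuclear subunit genes, 35 fell, 0 rose and 1 did not pass the test (edgeR quasi-likelihood test on counts, Benjamini-Hochberg adjusted p under 0.05). Across all 15097 genes tested, 39.4% fell and 42.7% rose by this test. Genes with short transcripts fell more often. Among protein-coding genes over 500 and up to 750 nt, 67.3% fell, and the nuclear subunits had a median length of 704 nt. The median log2 change of the nuclear subunits was -1.11, against 0.06 for all genes tested. All 8 assembly factors fell, with a median of -1.26. Of the 7 mitochondrially encoded subunits 1 rose, 0 fell and 6 did not pass, with a median of 0.05. The counts in each direction were the same at an unadjusted p under 0.05 and by DESeq2. Without day 10 replicate 2, 2 of the 7 rose and their median was 0.21. Among the nuclear subunits, 34 of 36 had no overlap between the CPM of both days, with day 10 lower, as did 37.2% of all genes tested, and 40.8% of these had no overlap with day 10 higher. A fall of more than 1 log2 unit was found for 23 of the 36, against 22.0% of all genes tested.

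Summed over genes, the nuclear subunits had 3047, 2773, 2778 and 2863 TPM (a level scaled for transcript length and library size) in the 4 day 10 libraries, against 4625, 4351, 4995 and 4964 TPM at day 0. The assembly factors summed to 130.8, 123.0, 120.7 and 120.3 TPM at day 10, against 227, 226, 232 and 212 TPM at day 0. The mitochondrially encoded subunits summed to 17790, 11180, 18120 and 15600 TPM at day 10, against 11920, 12110, 11810 and 8551 TPM at day 0. The days were thus separate for both nuclear classes and overlapped for the mitochondrial one. Means were 2865 ± 128 against 4734 ± 305.5 TPM for the nuclear subunits and 15670 ± 3195 against 11100 ± 1703 TPM for the mitochondrial ones, day 10 first (SD, n = 4 each). Without day 10 replicate 2 the mitochondrial mean at day 10 was 17170 TPM, and without day 0 replicate 4 that of day 0 was 11950 TPM. Per gene, the mean mitochondrial level was 30.03, 20.8, 33.5 and 28.0 times the mean nuclear one at day 10, against 13.2, 14.3, 12.2 and 8.86 times at day 0, with no overlap.

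**Figure D1:**
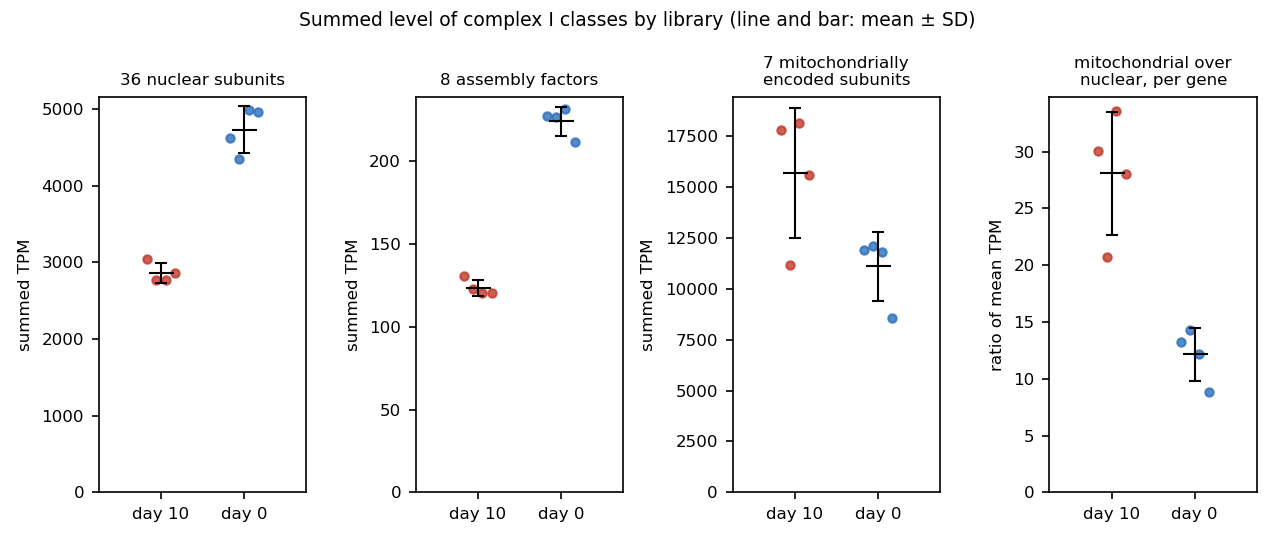
Summed TPM of the 36 nuclear subunits, the 8 assembly factors and the 7 mitochondrially encoded subunits, and the ratio of mean mitochondrial to mean nuclear TPM per gene, in each library (dots), with day 10 left of day 0 and the mean ± SD as a line and bar. The nuclear sums of the 2 days do not overlap, the mitochondrial sums do, and the ratio at day 10 (20.8 to 33.5) lies above that at day 0 (8.86 to 14.3).

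Nuclear complex I transcripts are short, and short transcripts as a whole were lower at day 10. The nuclear subunits had a median length of 704 nt (377 to 2296 nt), against 2326 nt for all genes tested. Among protein-coding genes tested, the median log2 change was -1.42 for the 106 genes of at most 500 nt, -1.01 for the 441 genes over 500 and up to 750 nt, -0.63 for the 793 up to 1000 nt, -0.44 for the 2075 up to 1500 nt and -0.01 for the 5889 up to 3000 nt. It was 0.47 for the 4086 genes up to 6000 nt and 0.93 for the 721 longer ones. In the same order of classes, 74.5, 67.3, 59.4, 54.8, 40.8, 27.7 and 20.4% of these genes were called lower. Against the median of their own length class, 27 of 36 nuclear subunits were lower, with a median difference of -0.16. All 8 assembly factors were lower than their class, with a median difference of -0.78, and so were all 7 nuclear core subunits. Of the mitochondrially encoded subunits, 6 of 7 were above the median of their class.

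A fit with the trend of counts over transcript length removed from each library gave fewer falls. In it 18 nuclear subunits fell, 2 rose (Ndufb2 and Ndufb7) and the median was -0.28, while 41.5% of all genes tested fell and 39.7% rose. The assembly factors kept 7 falls of 8 with a median of -0.75, and the exception was Ndufaf8 (adjusted p = 0.142, edgeR quasi-likelihood test). Of the mitochondrially encoded subunits, 4 rose in that fit (mt-Nd1, mt-Nd3, mt-Nd4l and mt-Nd6), with a median of 0.72. For mt-Nd4l the fit used its annotated 297 nt, though it shares 1 messenger with mt-Nd4. On log2(TPM + 1), tested with limma-trend, 31 nuclear subunits fell, 0 rose and the median was -0.76 (Ndufa3, Ndufa10, Ndufb7, Ndufb11 and Ndufs4 lost the call and Ndufb2 gained one), while 27.5% of all genes tested fell, 51.5% rose and their median was 0.39. On that scale 8 of 8 assembly factors fell and 3 mitochondrially encoded subunits rose (mt-Nd1, mt-Nd3 and mt-Nd5). Whether the trend with length comes from the cells or from the libraries was not tested.

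**Figure D2:**
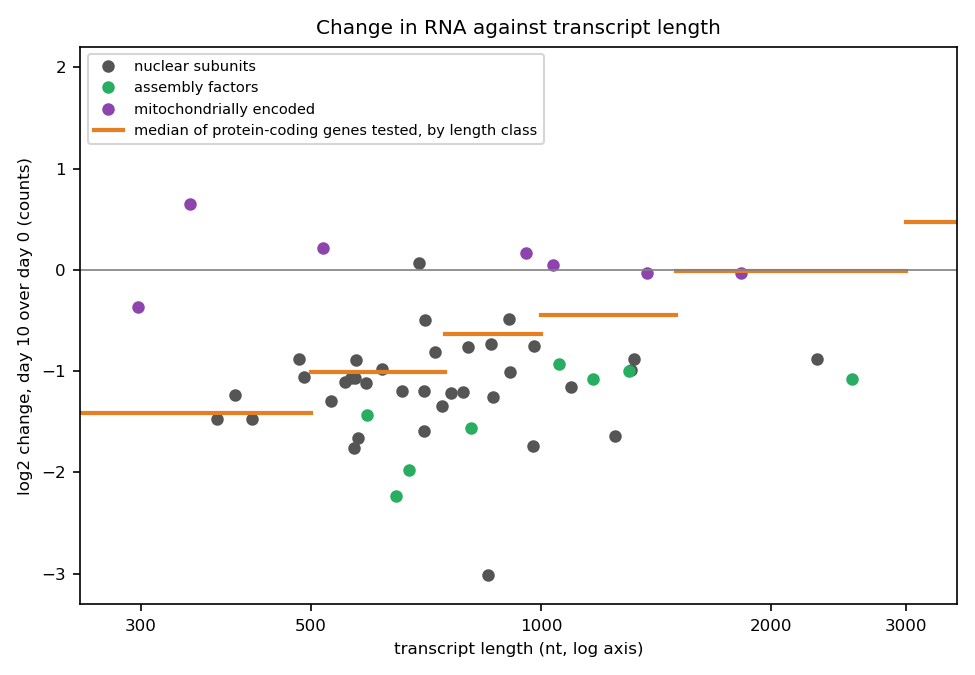
Log2 change in counts (day 10 over day 0) of each nuclear subunit, assembly factor and mitochondrially encoded subunit against its transcript length in nucleotides (log axis), weighted by TPM over the transcripts of a gene. Orange lines give the median of all protein-coding genes tested in each length class, from -1.42 up to 500 nt to 0.47 between 3000 and 6000 nt, and 27 of 36 nuclear subunits lie below the line of their class.

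**Figure D3:**
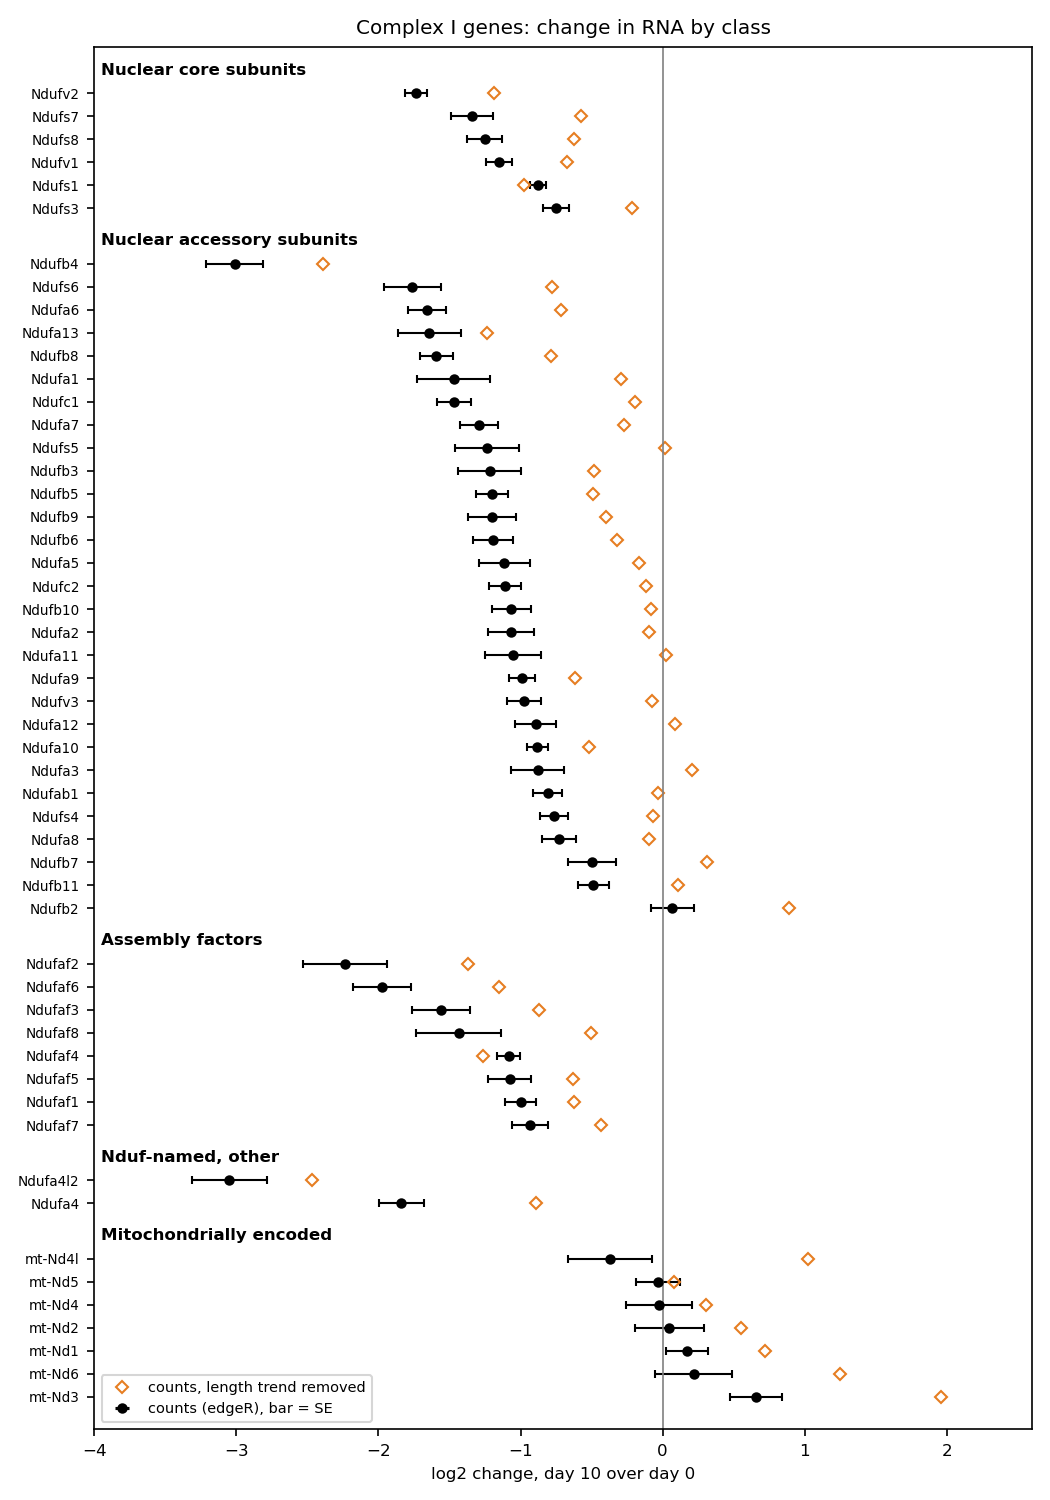
Log2 change (day 10 over day 0) of 52 of the 53 genes by class, from counts (black dots, bars give the SE of the edgeR estimate) and from counts with the length trend removed (open diamonds). All nuclear subunits drawn but Ndufb2 and all 8 assembly factors have black dots below 0, and the diamonds lie to the right of the dots for all but the long transcripts Ndufs1 and Ndufaf4.

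The 7 nuclear core subunits carry the redox centres. All 7 fell on counts, with a median of -1.15, and 6 of 7 fell with the length trend removed, with a median of -0.63. In CPM, the 4 day 10 libraries were all below the 4 day 0 libraries in each of the 7.

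In the N module, Ndufv1 binds NADH and FMN. Ndufv1 (ENSMUSG00000037916) had 35.5, 32.4, 37.6 and 35.6 CPM at day 10, against 80.9, 65.2, 85.8 and 81.6 CPM at day 0. Its log2 change was -1.15 ± 0.09 (SE, edgeR adjusted p = 3.14e-08). Its partner Ndufv2, which holds an iron-sulfur cluster beside the FMN site, fell most of the core. Ndufv2 (ENSMUSG00000024099) had 69.2, 59.3, 62.9 and 65.7 CPM at day 10, against 192, 200, 234 and 229 CPM at day 0. It was 3.33-fold lower, with a log2 change of -1.74 ± 0.08 (edgeR adjusted p = 8.35e-11), and -1.19 with the length trend removed. Ndufs1, the large iron-sulfur subunit, has the longest transcript of the nuclear subunits. Ndufs1 (ENSMUSG00000025968) had 83.0, 77.4, 80.2 and 82.8 CPM at day 10, against 153, 145, 146 and 151 CPM at day 0. It was 1.84-fold lower (log2 -0.88 ± 0.06, edgeR adjusted p = 4.1e-09), and its change was -0.98 with the length trend removed.

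In the Q module, where ubiquinone is reduced, 3 core subunits are described one by one. Ndufs7 carries the last iron-sulfur cluster before ubiquinone. Its day 0 libraries fell into a lower and a higher pair, as did those of some other subunits, such as Ndufb6 and Ndufb7, though not Ndufs3. Ndufs7 (ENSMUSG00000020153) had 25.2, 23.0, 24.9 and 23.0 CPM at day 10, against 50.2, 46.7, 74.9 and 71.8 CPM at day 0. Its log2 change was -1.34 ± 0.15 (edgeR adjusted p = 3.55e-06). Ndufs8, which holds a further pair of iron-sulfur clusters, was the least abundant of the core. Ndufs8 (ENSMUSG00000059734) had 6.40, 7.22, 7.38 and 8.24 CPM at day 10, against 15.5, 18.2, 17.4 and 18.7 CPM at day 0, a log2 change of -1.25 ± 0.13 (edgeR adjusted p = 3.82e-07). Ndufs3, a core subunit with no cluster of its own, fell least. Ndufs3 (ENSMUSG00000005510) had 24.9, 22.7, 24.98 and 27.6 CPM at day 10, against 46.5, 42.0, 41.2 and 39.2 CPM at day 0. Its log2 change was -0.75 ± 0.09 (edgeR adjusted p = 2.67e-06), and -0.21 with adjusted p = 0.0585 once the length trend was removed.

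**Figure D4:**
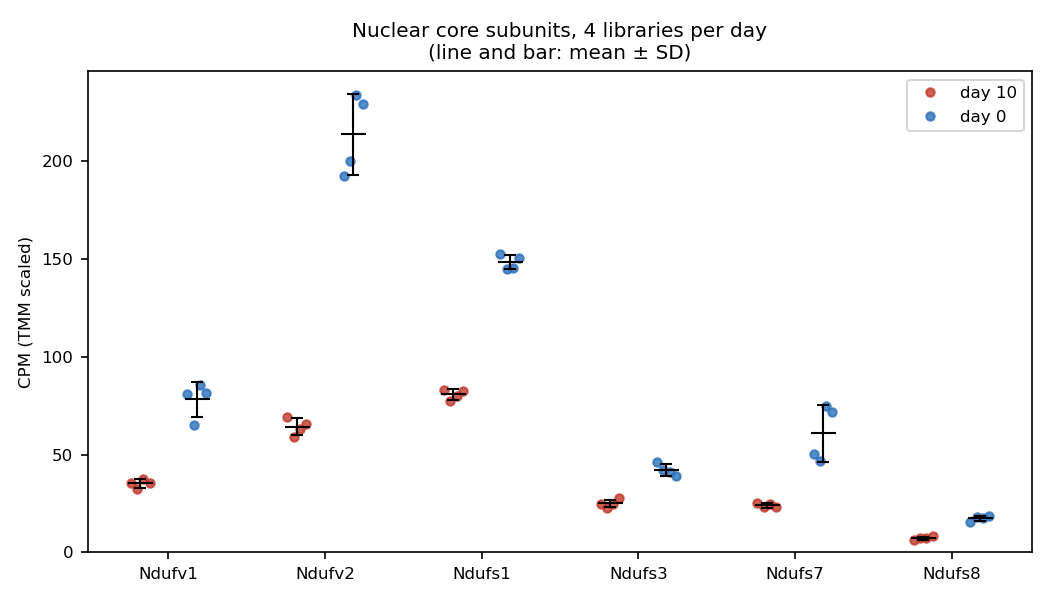
CPM (TMM scaled) of 6 of the 7 nuclear core subunits in each library (dots), with day 10 left of day 0 and the mean ± SD as a line and bar. In every gene drawn the 4 day 10 libraries lie below the 4 day 0 libraries, and the gap is widest for Ndufv2 (59.3 to 69.2 CPM at day 10, 192 to 234 CPM at day 0).

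The 29 accessory subunits followed with 28 falls, 0 rises and a median of -1.11. With the length trend removed, 12 of the 29 fell and 2 rose, with a median of -0.16. In that fit 41.5% of all genes tested fell and 39.7% rose, so the falls of the accessory subunits were near the share of all genes. By module, core and accessory together, 10 of 10 N module genes, 6 of 6 Q module genes and 19 of 20 P module genes fell on counts, with medians of -1.11, -1.06 and -1.15. The summed TPM per module was lower at day 10 as well. The N module had 997 ± 55.6 TPM at day 10 and 1697 ± 107 TPM at day 0, the Q module 487 ± 31.4 and 736 ± 27.5 TPM, and the P module 1381 ± 61.6 and 2301 ± 180 TPM (SD, n = 4 each, no overlap in any).

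The steepest fall among the subunits was that of Ndufb4, an accessory subunit of the membrane arm. Ndufb4 (ENSMUSG00000022820) had 1.54, 1.67, 1.61 and 2.30 CPM at day 10, against 13.4, 18.9, 14.2 and 11.7 CPM at day 0. It was 8.07-fold lower, with a log2 change of -3.01 ± 0.20 (edgeR adjusted p = 5.14e-09). The change was -2.39 with the length trend removed and -2.30 on log2(TPM + 1). Ndufb4 has near-identical copies in the mouse genome, between which the quantification could have split reads.

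Among the accessory subunits, Ndufs6 and Ndufa6 of the N module came next. Ndufs6, a zinc-binding subunit added late in assembly, had 4.71, 4.20, 3.73 and 2.80 CPM at day 10, against 16.2, 9.54, 14.6 and 11.98 CPM at day 0 (log2 -1.76 ± 0.20, edgeR adjusted p = 1.78e-06). Ndufa6, a LYR-motif subunit that holds the acyl carrier protein Ndufab1, had 6.18, 5.62, 4.82 and 6.22 CPM at day 10, against 18.2, 20.3, 18.4 and 15.6 CPM at day 0 (log2 -1.66 ± 0.14, edgeR adjusted p = 4.34e-08). Both stayed below 0 and past the threshold with the length trend removed, at -0.78 and -0.71.

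The smallest falls were those of Ndufa8, Ndufb7 and Ndufb11, all of the membrane arm. Ndufa8, a twin-CX9C subunit of the intermembrane space side, had 20.5, 16.4, 18.3 and 18.8 CPM at day 10, against 27.8, 26.0, 35.2 and 33.4 CPM at day 0 (log2 -0.73 ± 0.12, edgeR adjusted p = 4.62e-05). Ndufb11, encoded on the X chromosome, had 24.5, 24.3, 23.1 and 23.1 CPM at day 10, against 29.6, 28.97, 34.4 and 40.2 CPM at day 0 (log2 -0.49 ± 0.11, edgeR adjusted p = 0.000874). Ndufb7 had 20.8, 16.8, 15.0 and 17.0 CPM at day 10, against 20.8, 17.8, 29.1 and 30.4 CPM at day 0 (log2 -0.50 ± 0.17, edgeR adjusted p = 0.0167). The days overlapped for Ndufb7, and its call was lost without day 0 replicate 3 (adjusted p = 0.0516) or without day 0 replicate 4 (adjusted p = 0.0541, edgeR). With the length trend removed, Ndufa8 and Ndufb11 did not pass and Ndufb7 rose by 0.31 (adjusted p = 0.0469, edgeR). On log2(TPM + 1) neither Ndufb11 (-0.09, limma-trend adjusted p = 0.392) nor Ndufb7 (-0.17, limma-trend adjusted p = 0.363) passed, and the days overlapped in TPM for both.

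Ndufb2 was the subunit that did not fall on counts without a length correction, and it is named here after its values were seen. It had 21.1, 16.2, 16.8 and 17.99 CPM at day 10, against 17.1, 12.05, 18.9 and 20.6 CPM at day 0, and the days overlapped (log2 0.07 ± 0.15, edgeR adjusted p = 0.686). On log2(TPM + 1) its change was -0.52 (limma-trend adjusted p = 0.0231), and with the length trend removed it was 0.89 (edgeR adjusted p = 1.14e-05). With effective length as an offset to the counts it was -0.94 (edgeR adjusted p = 0.00112). No transcript share of it passed (adjusted p = 0.0804 for Ndufb2-202, Ndufb2-203 and Ndufb2-206, exact permutation test). This was the smallest adjusted p of any transcript compared, and the days were separate for these shares. The protein-coding transcript Ndufb2-202 of 455 nt made up 52.4, 58.2, 61.5 and 35.8% of the gene's TPM at day 10, against 84.4, 79.3, 82.6 and 87.4% at day 0. The retained-intron transcripts Ndufb2-203 and Ndufb2-206 had means of 15.6% and 19.8% at day 10, against 4.73% and 4.97% at day 0.

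Within the nuclear subunits the order of levels was largely kept. Mean TPM ran from 5.88 (Ndufb4) to 260 (Ndufs4) at day 10, against 16.6 (Ndufb3) to 411 (Ndufv2) at day 0, and the Spearman correlation of the mean TPM of the days across the 36 genes was 0.948, as a description of genes measured in the same libraries. Libraries of the same day differed over many genes in the same direction. Day 10 replicate 2 was the lowest of its day for 20 of 36 nuclear subunits, and day 0 replicate 2 was the lowest of its day for 25 of 36.

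All 8 assembly factors fell, each by more than the median of its length class. Their levels were low, with mean TPM of 3.601 to 26.3 at day 10 and 10.2 to 47.5 at day 0. Ndufaf2, which in human cells joins late to the N module, fell most. Ndufaf2 (ENSMUSG00000068184) had 1.54, 0.617, 1.24 and 0.841 CPM at day 10, against 6.17, 4.39, 5.39 and 3.93 CPM at day 0 (log2 -2.23 ± 0.30, edgeR adjusted p = 7.54e-06). Ndufaf6, needed in human cells for early assembly, had 3.02, 1.67, 2.48 and 2.52 CPM at day 10, against 9.22, 10.6, 10.5 and 7.79 CPM at day 0 (log2 -1.98 ± 0.20, edgeR adjusted p = 5.46e-07). At the other end stood Ndufaf1, a member of the complex that assembles the membrane arm, and Ndufaf7, a methyltransferase in human cells. Ndufaf1 had 11.4, 10.9, 11.03 and 11.8 CPM at day 10, against 20.6, 20.7, 23.7 and 25.3 CPM at day 0 (log2 -0.9998 ± 0.11, edgeR adjusted p = 1.03e-06). Ndufaf7 had 15.8, 12.6, 12.6 and 11.04 CPM at day 10, against 21.8, 23.5, 26.9 and 26.9 CPM at day 0 (log2 -0.93 ± 0.13, edgeR adjusted p = 8.77e-06). In CPM the days did not overlap for any of the 8, while in TPM they overlapped for Ndufaf3 and Ndufaf6. The other 4 (Ndufaf3, Ndufaf4, Ndufaf5 and Ndufaf8) had log2 changes between these, from -1.56 (Ndufaf3) to -1.08 (Ndufaf5).

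The assembly factors without the Ndufaf name numbered 11 measured (Coa1 was not matched). Of these 10 fell, 0 rose and 1 did not pass, with a median of -0.80. In the fit without the length trend 10 fell and 1 rose, and on log2(TPM + 1) 6 fell and 1 rose, with a median of -0.35. Of all genes tested, 39.4% fell and 42.7% rose on counts. These shares were 41.5% and 39.7% without the length trend, and 27.5% and 51.5% on log2(TPM + 1). Ecsit had 5.83 ± 0.74 CPM at day 10 and 30.4 ± 1.25 CPM at day 0 (SD, n = 4 each, log2 -2.39 ± 0.12, edgeR adjusted p = 1.46e-10), and Foxred1 had 19.1 ± 1.32 and 35.1 ± 0.78 CPM (log2 -0.88 ± 0.09, edgeR adjusted p = 3.56e-07).

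The 7 mitochondrially encoded subunits form the proton-pumping membrane core. They are read from 2 strands of one circular genome as long precursors that are cut into separate RNAs, except that mt-Nd4l and mt-Nd4 remain on 1 messenger. Their reading frames overlap by 7 bases in the GENCODE M21 annotation of GRCm38, shown in capitals in the last 30 bases of mt-Nd4l and the first 30 bases of mt-Nd4. The sequences, on the plus strand, are given because these 7 bases belong to both genes.
mt-Nd4l, chrM:10144-10173: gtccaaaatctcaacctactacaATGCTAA
mt-Nd4, chrM:10167-10196: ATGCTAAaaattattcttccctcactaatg
The mt-Nd6 gene lies on the minus strand at chrM:13552-14070 and overlaps only the last bases of mt-Nd5 at chrM:11742-13565. Without a statement on strand, how reads over either overlap were assigned is not known. Nuclear copies of mitochondrial DNA add a further doubt.

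Among these 7, mt-Nd1 had the highest TPM in all 8 libraries, and mt-Nd2 the lowest in 7 of 8. Day 10 replicate 2 was the lowest of its day for all 7, and day 0 replicate 4 was the lowest of its day for all 7.

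The one that rose on counts was mt-Nd3, which sits near the quinone channel. mt-Nd3 had 329, 186, 308 and 245 CPM at day 10, against 160, 167, 205 and 148 CPM at day 0, and the days overlapped in CPM (log2 0.65 ± 0.18, edgeR adjusted p = 0.00927). In TPM the days were separate, with 3651, 2246, 3512 and 2626 TPM at day 10, against 1344, 1770, 1777 and 1271 TPM at day 0. The call held in all 19 alternatives run on it, with adjusted p from 3.4e-06 to 0.0356.

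mt-Nd1, at the junction of the membrane and peripheral arms, had 5329, 3586, 4559 and 4389 TPM at day 10, against 3658, 3085, 3091 and 2373 TPM at day 0. Its log2 change was 0.17 ± 0.15 on counts (edgeR adjusted p = 0.304) and 0.55 on log2(TPM + 1) (limma-trend adjusted p = 0.00442). mt-Nd6, the only one of the 7 on the minus strand, had 1321, 874, 1809 and 1974 TPM at day 10, against 1119, 1075, 1078 and 836 TPM at day 0. Its log2 change on counts was 0.22 ± 0.27 (edgeR adjusted p = 0.475), and it rose by 0.42 without day 10 replicate 2 (adjusted p = 0.0295, edgeR).

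mt-Nd2, mt-Nd4 and mt-Nd5 are the antiporter-like pumps of the membrane arm, and none of them passed on counts. mt-Nd2 had 1154, 676, 1283 and 1041 TPM at day 10, against 895, 779, 876 and 534 TPM at day 0 (log2 on counts 0.05 ± 0.24, edgeR adjusted p = 0.865). mt-Nd4 had 2399, 1363, 2787 and 2230 TPM at day 10, against 1801, 1916, 1805 and 1288 TPM at day 0 (log2 on counts -0.03 ± 0.23, edgeR adjusted p = 0.917). mt-Nd5 had 2663, 1797, 2603 and 1985 TPM at day 10, against 1899, 1850, 1865 and 1353 TPM at day 0 (log2 on counts -0.03 ± 0.15, edgeR adjusted p = 0.864). On log2(TPM + 1) mt-Nd5 rose by 0.37 (limma-trend adjusted p = 0.0415), while mt-Nd2 and mt-Nd4 did not pass. The days overlapped in all 3.

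mt-Nd4l, the smallest of the 7, had 1274, 644, 1566 and 1358 TPM at day 10, against 1201, 1637, 1319 and 896 TPM at day 0, with overlap (log2 on counts -0.37 ± 0.30, edgeR adjusted p = 0.28). With the length trend removed, its change was 1.02 (edgeR adjusted p = 0.0132), so the sign for this short gene depends on the treatment of length. That fit used its annotated 297 nt, not the length of the messenger it shares with mt-Nd4. In the same fit mt-Nd4, entered with 1378 nt, was at 0.31 and did not pass (edgeR adjusted p = 0.268). The rise of mt-Nd4l in that fit thus rests on the length assigned to it.

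**Figure D5:**
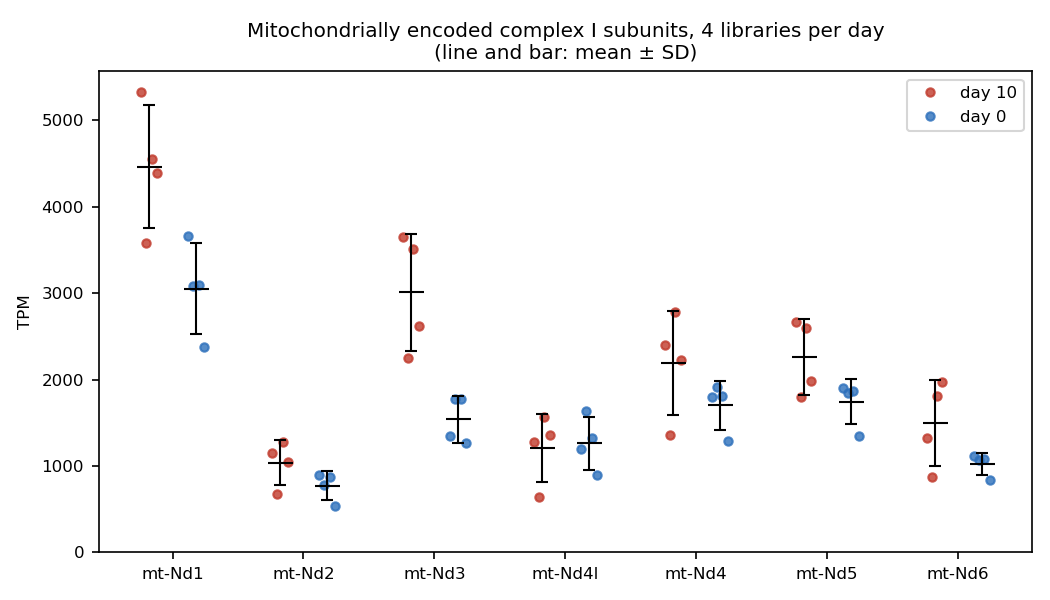
TPM of the 7 mitochondrially encoded subunits in each library (dots), with day 10 left of day 0 and the mean ± SD as a line and bar. mt-Nd3 is the gene whose days are separate (2246 to 3651 TPM at day 10, 1271 to 1777 TPM at day 0), and the lowest day 10 dot of each gene is replicate 2.

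The other 6 proteins of mitochondrial DNA give the setting for these values. Of them 2 fell, 0 rose and 4 did not pass on counts, with a median of -0.18. Of all genes tested, 39.4% fell and 42.7% rose on counts. The sign of the median turned with the length trend removed (1 fell, 3 rose, median 0.42) and on log2(TPM + 1) (1 fell, 1 rose, median 0.16). With the length trend removed, 41.5% of all genes fell and 39.7% rose. On log2(TPM + 1), 27.5% fell and 51.5% rose with a median of 0.39, so 0.16 was still below that of all genes. mt-Co1 had 8546 ± 746 CPM at day 10 and 11750 ± 994 CPM at day 0 (log2 -0.46 ± 0.08, edgeR adjusted p = 0.000117), and mt-Atp6 had 1265 ± 429 and 2808 ± 616 CPM (SD, n = 4 each, log2 -1.15 ± 0.30, edgeR adjusted p = 0.00908). With the length trend removed mt-Atp6 did not pass (log2 -0.35, edgeR adjusted p = 0.336), while mt-Co1 still fell (log2 -0.21, edgeR adjusted p = 0.028). On log2(TPM + 1) the change was -0.05 for mt-Co1 and -0.84 for mt-Atp6. Their summed TPM was 36560 ± 5843 at day 10 and 37150 ± 4369 at day 0, with overlap.

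The genes with the Nduf name that are not counted as complex I subunits both fell. Ndufa4, which is assigned to complex IV, had 4.34, 3.27, 4.46 and 5.33 CPM at day 10, against 17.1, 16.4, 15.0 and 14.0 CPM at day 0 (log2 -1.84 ± 0.16, edgeR adjusted p = 7.8e-08). Its paralogue Ndufa4l2 had 1.03, 1.30, 0.438 and 1.18 CPM at day 10, against 7.005, 9.40, 8.25 and 8.64 CPM at day 0, and was 8.27-fold lower (log2 -3.05 ± 0.26, edgeR adjusted p = 7.64e-08). Both remained past the threshold with the length trend removed, at -0.89 and -2.46. Ndufb1-ps, which M21 types as a long noncoding RNA and which the selection therefore leaves out, had 3.83, 1.30, 2.56 and 2.19 CPM at day 10, against 7.19, 8.64, 8.17 and 5.76 CPM at day 0 (log2 -1.60 ± 0.27, edgeR adjusted p = 8.36e-05).

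The nuclear subunits of complexes II to V fell alongside. Of 44 tested, 40 fell, 0 rose and 4 did not pass, with a median of -1.10, and their summed TPM was 6523 ± 167 at day 10 and 11850 ± 556.5 at day 0. Atp5b, the catalytic subunit of ATP synthase, had 505 ± 12.9 CPM at day 10 and 1489 ± 87.6 CPM at day 0 (log2 -1.56 ± 0.06, edgeR adjusted p = 2.02e-11), and Uqcrc1 of complex III had 66.2 ± 4.87 and 212 ± 17.6 CPM (log2 -1.68 ± 0.08, edgeR adjusted p = 7.64e-11). Corrected for the length trend, 28 fell and 6 rose (median -0.39), and on log2(TPM + 1) 35 fell and 2 rose (median -0.77). The share of all genes that fell was 39.4% on counts, 41.5% with that correction and 27.5% on log2(TPM + 1). The share that rose was 42.7%, 39.7% and 51.5%. Whether the fall of complex I genes differs from that of these genes was not tested.

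Suppliers of the cofactors, iron-sulfur clusters, FMN and quinone, were mostly lower. Of 24 tested (Fdx2 was not matched), 18 fell, 2 rose and 4 did not pass, with a median of -0.68. Removing the length trend left 13 falls and 4 rises (median -0.36), and on log2(TPM + 1) 13 fell and 5 rose (median -0.40). Among all genes tested, 39.4% fell and 42.7% rose on counts. Without the length trend 41.5% fell and 39.7% rose, and on log2(TPM + 1) 27.5% and 51.5%. Nfu1, which delivers iron-sulfur clusters, had 11.99 ± 0.70 CPM at day 10 and 34.8 ± 2.85 CPM at day 0 (log2 -1.54 ± 0.10, edgeR adjusted p = 3.43e-09), and Pdss1, which makes the quinone tail, had 23.1 ± 1.78 and 52.0 ± 3.11 CPM (log2 -1.17 ± 0.09, edgeR adjusted p = 1.24e-08). Isca1 and Iba57, both of the late iron-sulfur pathway, rose by 0.86 ± 0.09 (edgeR adjusted p = 5.57e-07) and 0.48 ± 0.17 (edgeR adjusted p = 0.0169), and Iba57 did not pass with the length trend removed.

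Genes for the expression of mitochondrial DNA were mostly lower. Of 27 tested (Prorp was not matched), 24 fell, 1 rose and 2 did not pass on counts, with a median of -1.09. Without the length trend 24 fell and 2 rose (median -1.06), and on log2(TPM + 1) 21 fell and 4 rose (median -0.61). Over all genes tested, in the order counts, length trend removed and log2(TPM + 1), 39.4, 41.5 and 27.5% fell. In that order 42.7, 39.7 and 51.5% rose. Elac2, which cuts the ends of mitochondrial tRNAs, had 24.1 ± 2.09 CPM at day 10 and 73.0 ± 3.84 CPM at day 0 (log2 -1.60 ± 0.08, edgeR adjusted p = 3.2e-10). Pnpt1, a subunit of the mitochondrial RNA degradosome, had 86.5 ± 8.17 CPM at day 10 and 222 ± 11.2 CPM at day 0 (log2 -1.36 ± 0.07, edgeR adjusted p = 5.38e-10). Polg2, the accessory subunit of the mitochondrial DNA polymerase, rose by 0.91 ± 0.13 (edgeR adjusted p = 1.32e-05).

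Markers of mitochondrial mass and import gave 18 falls, 1 rise and 1 gene not passing of 20, with a median of -0.998. Once the length trend was removed, 18 fell and 2 rose, and on log2(TPM + 1) 15 fell and 2 rose. The chaperones Hspd1 and Hspa9 had 268 ± 5.35 and 521 ± 17.6 CPM at day 10, against 929 ± 26.2 and 1363 ± 22.8 CPM at day 0 (log2 -1.79 ± 0.06 and -1.39 ± 0.06, edgeR adjusted p = 1.97e-12 and 2.35e-11). Mfn2, which fuses mitochondria, rose by 0.74 ± 0.11 (edgeR adjusted p = 2.34e-05).

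Among 13 tested regulators of nuclear respiratory genes, 8 fell, 4 rose and 1 did not pass, with a median of -0.49. After removal of the length trend 9 fell and 2 rose, and on log2(TPM + 1) 5 fell and 5 rose (median -0.08). All genes tested had 39.4% falls and 42.7% rises on counts. They had 41.5% and 39.7% after removal of the length trend, and 27.5% and 51.5% on log2(TPM + 1). Esrrb, an orphan receptor of the stem cell network that is also one of the pluripotency markers, had 2.71 ± 0.57 CPM at day 10 and 306 ± 17.96 CPM at day 0 (log2 -6.81 ± 0.11, edgeR adjusted p = 1.23e-14). Pprc1, a coactivator of the PGC-1 family, had 70.6 ± 4.89 CPM at day 10 and 175.5 ± 9.67 CPM at day 0 (log2 -1.31 ± 0.07, edgeR adjusted p = 3.47e-10). The related receptor Esrrg had 11.1 ± 2.05 CPM at day 10 and 0.42 ± 0.12 CPM at day 0 (log2 4.69 ± 0.26, edgeR adjusted p = 5.14e-10). The coactivator Ppargc1a had 9.71 to 14.4 CPM at day 10 and 0 to 0.253 CPM at day 0 (edgeR adjusted p = 8.61e-10). Members of the same receptor and coactivator families thus moved in opposite directions.

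Transcript shares within the complex I genes were compared in 76 transcripts of 29 genes, and 0 passed after adjustment (exact two-sided permutation test over 70 assignments, smallest possible p = 0.0286, smallest adjusted p = 0.0804). At an unadjusted p under 0.05 there were 27, and 0 passed on shares of estimated counts. On either measure, a transcript at the smallest possible p could pass only if many others did too, so the lack of calls says little. Over all nuclear subunits, transcripts typed as protein-coding held 69.9, 68.4, 71.1 and 68.2% of TPM at day 10, against 75.8, 81.4, 78.0 and 77.5% at day 0, with no overlap. Over all protein-coding genes the share was 72.6 ± 0.93% at day 10 and 76.7 ± 0.72% at day 0 (SD, n = 4 each), and for the assembly factors it was 60.1 ± 2.29% and 57.6 ± 5.81% with overlap.

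An example chosen after the values were seen was Ndufv3. Ndufv3, an N module subunit known in 2 protein forms, had 27.9, 18.8, 23.0 and 22.2 CPM at day 10, against 43.7, 39.5, 45.97 and 51.3 CPM at day 0 (log2 -0.98 ± 0.12, edgeR adjusted p = 3.2e-06). Its transcript Ndufv3-201 of 1582 nt held 15.8, 15.4, 19.6 and 12.8% of the gene's TPM at day 10, against 8.13, 7.86, 6.37 and 6.19% at day 0. In TPM, Ndufv3-201 was at 14.5 ± 2.77 at day 10 and 12.3 ± 0.71 at day 0, while Ndufv3-202 of 493 nt was at 74.8 ± 9.25 and 157 ± 17.9 (SD, n = 4 each). For the share of Ndufv3-201 the days were separate, and the adjusted p was 0.0804 (exact permutation test), the smallest of any transcript compared. The 2 transcripts differ in length, and protein-coding genes of such lengths differed in their change on counts. Their median log2 change was -0.01 over 1500 and up to 3000 nt, and -1.42 up to 500 nt. The part of the length trend in this shift of share was not tested.

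Promoters of nuclear respiratory genes are known for sites of NRF1 and of ETS factors such as GABPA. The 250 bases before the start of each gene, from RefSeq (GRCm38.p6), were matched for 32 nuclear subunits and 7 assembly factors and searched on both strands. The NRF1 motif, gcgca followed by any base and gcgc, was found in 7 of these 39 genes (17.9%), against 4.23% of all 27025 genes of the table. The ETS motif ccggaag was found in 5 of 39 (12.8%), against 7.83% of all genes. The motifs tcaaggtca (ERR) and aagatggcg (YY1) were found in 0 of 39, against 0.422% and 0.71% of all genes. A match of letters is not evidence of binding, and these windows hold no measurement of it.

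Ndufb4, the subunit with the steepest fall, held 3 matches to the NRF1 motif, and Ndufs6 held 1. They are shown 5′ to 3′ on the strand of the gene with the match in capitals, beside Ndufaf4 and the weakly changed Ndufa8, which held 1 each as well.
Ndufb4, chr16:37654530-37654579, minus strand: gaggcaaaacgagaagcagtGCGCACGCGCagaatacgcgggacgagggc
Ndufb4, chr16:37654418-37654467, minus strand: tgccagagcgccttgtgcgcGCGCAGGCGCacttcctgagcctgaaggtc
Ndufb4, chr16:37654369-37654410, minus strand: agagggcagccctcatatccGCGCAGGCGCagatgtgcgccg
Ndufs6, chr13:73328483-73328518, minus strand: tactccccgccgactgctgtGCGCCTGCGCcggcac
Ndufaf4, chr4:24897950-24897999, plus strand: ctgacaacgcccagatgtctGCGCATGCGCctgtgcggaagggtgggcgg
Ndufa8, chr2:36049339-36049388, minus strand: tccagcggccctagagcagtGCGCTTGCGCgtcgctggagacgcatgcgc
The 7 genes with a match (Ndufa11, Ndufa5, Ndufa8, Ndufaf4, Ndufb4, Ndufs5 and Ndufs6) had log2 changes from -3.01 to -0.73, so the match stood beside both the steepest fall and one of the smallest.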

How the data were processed

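Total RNA of TC1 cells was made into libraries with a ribosomal RNA depletion kit, per the labels' protocols. The authors deposited 1 kallisto table per library with estimated counts, not scaled, and TPM, per the file headers. The submitters' processing notes give the kallisto version as 1 and name DESeq2. The transcript index with its genome build is not given in the sources used here. Versionless identifiers joined the transcripts to GENCODE M21 (117992 of 126126, 93.6%), and unmatched ones held 1.15 to 1.23% of counts. Estimated counts were summed per gene and rounded. Day 10 was tested against day 0 with edgeR 4.0.16 under R 4.3.3 (robust quasi-likelihood fit, TMM, filterByExpr), with Benjamini-Hochberg adjustment over 15097 genes and a threshold of 0.05. The common biological coefficient of variation was 12.5%. Transcript lengths are weighted by TPM. The length trend was removed as a lowess curve (span 0.3) over log2 length, fitted in each library. The curve was fitted to the deviation of each gene's log2 CPM from its mean over all 8 libraries. TPM were tested as log2(TPM + 1) with limma 3.58.1 in genes with at least 1 TPM in 4 libraries. DESeq2 1.42.0 and other settings were alternatives. The edgeR, DESeq2 and limma fits were tested on simulated data in which few genes changed and no length trend was built in. That simulation does not bear on the trend with length. Reads shared between near-identical copies, pseudogenes or overlapping genes make single values uncertain. Values per library are printed for the core and mitochondrially encoded subunits, the 3 highest and 3 lowest called changes of accessory subunits, 2 and 2 of assembly factors, Ndufa4, Ndufa4l2 and Ndufv3, and from other lists up to 2 called genes with the smallest p in each direction. The values of 1 nuclear core subunit are not reported here one by one. The members and lists were chosen with earlier results of these data known.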

Additional observations from a re-analysis of the deposited data

Results flagged for a closer look

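In 7 of 106 groups of 4 libraries tested, 1 library lay far from the other 3, where chance gives about 1 in 20 groups. Ndufa13 was at 3.09 CPM in day 10 replicate 2, against 5.52 to 5.84 CPM in the other day 10 libraries. Ndufb4 was at 2.30 CPM in day 10 replicate 4, against 1.54 to 1.67 CPM in the others. Ndufb6 was at 14.4 CPM in day 10 replicate 3, against 15.2 to 15.3 CPM in the others. Ndufab1 was at 31.3 CPM in day 10 replicate 4, against 24.9 to 25.8 CPM in the others, and at 40.8 CPM in day 0 replicate 2, against 49.0 to 49.9 CPM in the other day 0 libraries. Ndufa11 was at 14.9 CPM in day 0 replicate 3, against 12.2 to 12.5 CPM in the others. mt-Nd4l was at 77.3 CPM in day 0 replicate 4, against 111 to 115 CPM in the others.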

How the results depend on the processing

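With RLE or upper quartile scaling, DESeq2, no filter on low counts, mitochondrial genes left out of the totals, or effective length as an offset, the counts of calls per class stayed within 1.5 times those reported, and no gene's call was lost. With the effective length offset Ndufb2 gained a fall (edgeR adjusted p = 0.00112), so that 36 nuclear subunits fell. With the length trend removed, 18 nuclear subunits fell and 2 rose (median -0.28), the assembly factor median was -0.75, and 4 mitochondrially encoded subunits rose (median 0.72). In that fit the sign turned for Ndufa11 (0.0226), Ndufa12 (0.0883), Ndufs5 (0.0171), Ndufb11 (0.11), Ndufb7 (0.31), Ndufa3 (0.21), mt-Nd4 (0.31), mt-Nd5 (0.0775) and mt-Nd4l (1.02). In all, 18 falls on counts were not called lower and 5 rises were gained (Ndufb2, Ndufb7, mt-Nd1, mt-Nd4l and mt-Nd6). The cause was not tested. On log2(TPM + 1), log2(TPM + 0.1) and log2(TPM + 1) without a filter, the nuclear median was -0.76, -0.77 and -0.76, the assembly factor median -0.81, -0.84 and -0.81, and 3, 3 and 2 mitochondrially encoded subunits rose. In these, mt-Nd4 was at 0.335, 0.335 and 0.335, mt-Nd5 at 0.37 in all 3, and Ndufb2 at -0.52, -0.53 and -0.52. Ndufb2 was at -0.94 with the effective length offset and -0.0429 over protein-coding transcripts, over which mt-Nd4 was at 0.0303 and mt-Nd5 at 0.0279.

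Leaving out 1 library at a time gave 34 to 35 nuclear subunits lower, 8 assembly factors lower and 1 to 2 mitochondrially encoded subunits higher (2 without day 10 replicate 2), with medians of -1.22 to -1.06, -1.33 to -1.22 and -0.10 to 0.21. The log2 changes of genes near 0 turned sign in some of these, with ranges of -0.0844 to 0.158 for Ndufb2, -0.0956 to 0.214 for mt-Nd2, -0.168 to 0.151 for mt-Nd4 and -0.149 to 0.0756 for mt-Nd5. Over protein-coding transcripts alone, the nuclear sum was 1989 TPM at day 10 and 3699 TPM at day 0, and the assembly factor sum 74.3 and 129.0 TPM. With mitochondrial genes left out of the TPM these were 3069 and 5056 TPM, and 132.5 and 239.5 TPM. As shares of estimated counts, day 10 minus day 0 turned sign for Ndufaf7-206 (-0.289 percentage points), Ndufb10-205 (4.98), Ndufc1-204 (2.87), Ndufaf6-201 (5.63), Ndufab1-205 (-6.37) and Ndufaf3-202 (0.480).

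Deviations from the day mean correlated weakly between days, at 0.03 to 0.049 for same-numbered libraries and -0.072 to 0.028 for others. None was over 0.1, but same-numbered values were all above the others, and all 8 libraries correlated best with their own number. Whether replicate numbers pair the libraries was thus not settled. With the replicate number as a block, 0 calls of the 53 genes changed, with 35 nuclear subunits lower. Ndufaf8, with 55 counts over the day it was lowest, had an SE of 0.30.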
